A study of Gasterosteus aculeatus with 18 samples.

Results

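Cortisol is the main glucocorticoid of fish. It passes from mother to egg and acts in the embryo by binding the glucocorticoid receptor, a ligand-activated transcription factor that switches target genes on or off. ABC transporters, named in the title of the series, are membrane pumps that use ATP to move steroids and other compounds out of cells.

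The genes described here had their highest value at the high cortisol dose. They were chosen from deposited normalised read counts, in which each of 3 dose groups has libraries numbered 1 to 6. A gene with a mean of at least 11.4 over the 18 libraries was a member when the high value exceeded both the low and the control value of its own replicate number in all 6 numbers. Genes in which low lay below control, or control below low, as a strict order under high in 5 or 6 numbers were left out. Of 17253 genes in the table, 16103 reached the mean, 304 of them had the high value on top in 6 of 6 numbers, and 214 (1.33% of the 16103) were members. Below the mean, 2 other genes met the order. The differences between high, low and control pools therefore chose these genes and are given below as descriptions.

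Each library was made from total RNA of a pool of 10 wild-type threespine stickleback (Gasterosteus aculeatus) eggs of a clutch, sampled 72 hours after fertilization. The 6 control pools received cortisol at 0 µg/L, the 6 low pools at 5 µg/L and the 6 high pools at 10 µg/L, levels that stand for a baseline, for mothers exposed to predators and for more than the physiological range. The labels name the agent of the low and high groups as maternally derived cortisol. They do not say whether pools of one number came from one clutch, or that pools came from separate clutches, so p-values measure only the spread between these pools. In RNA of whole eggs, more cells of a type and more RNA per cell cannot be told apart.

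The deposited totals ran from 8.36 to 15.2 M per library. The spacing of the rounded values gave an estimated 9.66 to 12.4 M counted reads behind them. Genes at 5 or less numbered 418 to 738 per pool in control, 358 to 597 in low and 438 to 1220 in high. Pool 3 had the most in each group. Of all pools, high pool 3 was at the top and high pool 5 next at 802. The genes are named in the table by Ensembl identifier only, and 0 of the 17253 identifiers were found in the stickleback gene table used here. Symbols, functions, sequences and the gene lists drawn up by symbol, ABC transporters and glucocorticoid targets among them, are therefore not analysed here. Members are described below by identifier for 2 genes and otherwise by their rank.

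The differences that made a gene a member were mostly small. The mean log2 difference within replicate numbers, on the log2(value + 1) scale, had a median over the 214 members of 0.35 for high minus control and 0.39 for high minus low, which are 1.27-fold and 1.31-fold. Over all 16103 genes the same medians were -0.01 and -0.01. The middle of the members, from the lower to the upper quartile, lay between 1.18-fold and 1.41-fold over control and between 1.21-fold and 1.50-fold over low. Only 9 members exceeded 1 on the log2 scale against control and 15 against low, and the largest mean differences were 2.08 and 2.61.

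The smallest of a member's 6 margins, its high value over the higher of the low and control values of the same number, had a median of 0.07 on the log2 scale. It was under 0.02 in 42 members and over 0.25 in 24. At the edge of the rule, the member with the smallest margin had values of 8446 in control, 9493 in low and 9503 in high in replicate number 4. The genes just outside were tied, such as one with 426 in control, 419 in low and 426 in high in number 3. In all, 778 genes had the high value on top in 5 of 6 numbers, with median differences of 0.24 against control and 0.26 against low. The number in which they missed was 2 for 224 of them and 4 for 225, but 3 for 71 and 5 for 52.

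The rule left no member with an order of low and control in 5 or 6 numbers. Low below control below high held in exactly 4 numbers in 100 members, control below low below high in exactly 4 in 30, and neither order held in more than 3 numbers in the other 84. The 130 members with an order in 4 numbers had a median low minus control difference of -0.06, whereas the 76 genes left out for an order in 5 numbers had -0.15. The genes left out leaned to one side: 78 had low below control and 12 had control below low. Over the members the median low minus control difference was -0.04, with 142 members below 0 and 72 above, and 144 members lay within 0.1 of 0. With columns rescaled to the same total that median was 0.03, and the median of all genes moved too, from 0.002 to 0.07. The sign thus depends on the scaling, while the members' median lay below that of all genes in both scalings.

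**Figure D1:**
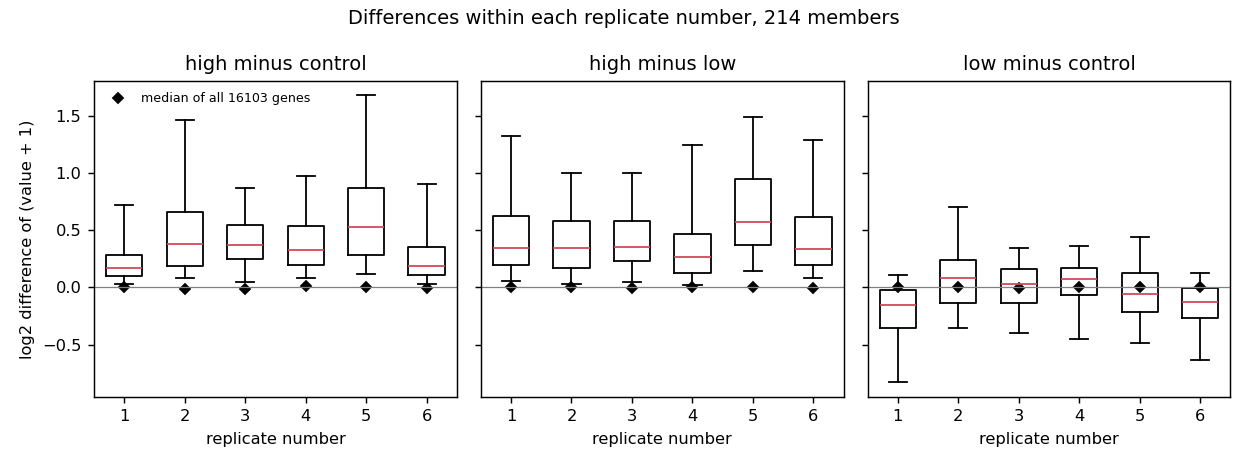
Log2 differences of (value + 1) within each replicate number for the 214 members, as high minus control, high minus low and low minus control. Boxes span the quartiles with the median in red, whiskers the 5th to 95th percentile, and diamonds mark the median of all 16103 genes; number 5 has the highest medians for high (0.53 and 0.57), and low lies below control in numbers 1, 5 and 6.

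The size of the difference varied with the replicate number. High minus control had a median of 0.17, 0.38, 0.37, 0.32, 0.53 and 0.19 over the members in numbers 1 to 6. High minus low had 0.34, 0.34, 0.35, 0.27, 0.57 and 0.33 in the same order. Number 5 held the largest margin of 107 members and the smallest of 8, while number 1 held the smallest of 55. The median of all 16103 genes stayed within 0.02 of 0 in each number for both differences.

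The low pools stood on different sides of control in different numbers. Low was below control in 172 members in number 1 and in 167 in number 6, but above control in 132 members in number 2 and 140 in number 4. The median low minus control difference over members was -0.15, 0.08, 0.03, 0.08, -0.06 and -0.13 in numbers 1 to 6. Among all 16103 genes low was below control in 47.5% to 50.1% of genes in each number in contrast to 80.4% and 78.0% of members in numbers 1 and 6. Because the rule removed genes with a steady order of low and control, the mixture of signs is in part its product.

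The member with the largest smallest margin was ENSGACG00000002875. It had a normalised read count of 2 to 160 (median 52.5) in control pools, 7 to 235 (median 28.0) in low pools and 51 to 521 (median 156) in high pools. The groups overlapped, since control pool 3, at 160, exceeded high pools 1, 2 and 6, at 77, 51 and 93. Within numbers, high exceeded control by 2.07 ± 1.14 and low by 2.11 ± 0.74 on the log2 scale (SD, n = 6), or 4.20-fold and 4.31-fold. Its low minus control difference was -0.04 ± 1.06, above 0 in 3 of 6 numbers. The widest step was in number 2, with 2 in control, 7 in low and 51 in high.

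The member ranked next by margin had the lowest mean of all members, 14.2. It had 2 to 18 in control, 5 to 16 in low and 11 to 46 in high pools, with medians of 9.5, 8.5 and 21.5. High exceeded control by 1.50 ± 0.67 and low by 1.30 ± 0.29 (log2, SD, n = 6). At these counts a difference of a few reads moves the ratio, and the lowest control values, 2 in each of numbers 4 and 5, set its largest differences.

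The gene at margin rank 3 had 4 to 120 in control, 13 to 79 in low and 33 to 194 in high pools. Its control pool 3 held 120, where the other control pools held 4 to 44. High exceeded control by 1.32 ± 0.85 and low by 1.48 ± 0.32 (log2, SD, n = 6).

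At rank 4 the values were 18 to 133 in control, 20 to 136 in low and 73 to 232 in high pools. High exceeded control by 0.98 ± 0.54 and low by 1.13 ± 0.39 (log2, SD, n = 6). The high values of numbers 1, 2, 4 and 6 lay close together at 73 to 93, and those of 3 and 5 stood above them at 232 and 205.

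At rank 5 the values were 15 to 157 in control, 22 to 180 in low and 43 to 303 in high pools, and number 3 held the highest value in each group. High exceeded control by 1.19 ± 0.54 and low by 1.01 ± 0.29 (log2, SD, n = 6). The gene at rank 6 had 2 to 207 in control, 15 to 264 in low and 87 to 377 in high pools, with the largest mean difference from control of all members, 2.08 ± 1.66. In all 6 of these genes the lowest high pool was below the highest control pool, so the order held within numbers and not across them.

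**Figure D2:**
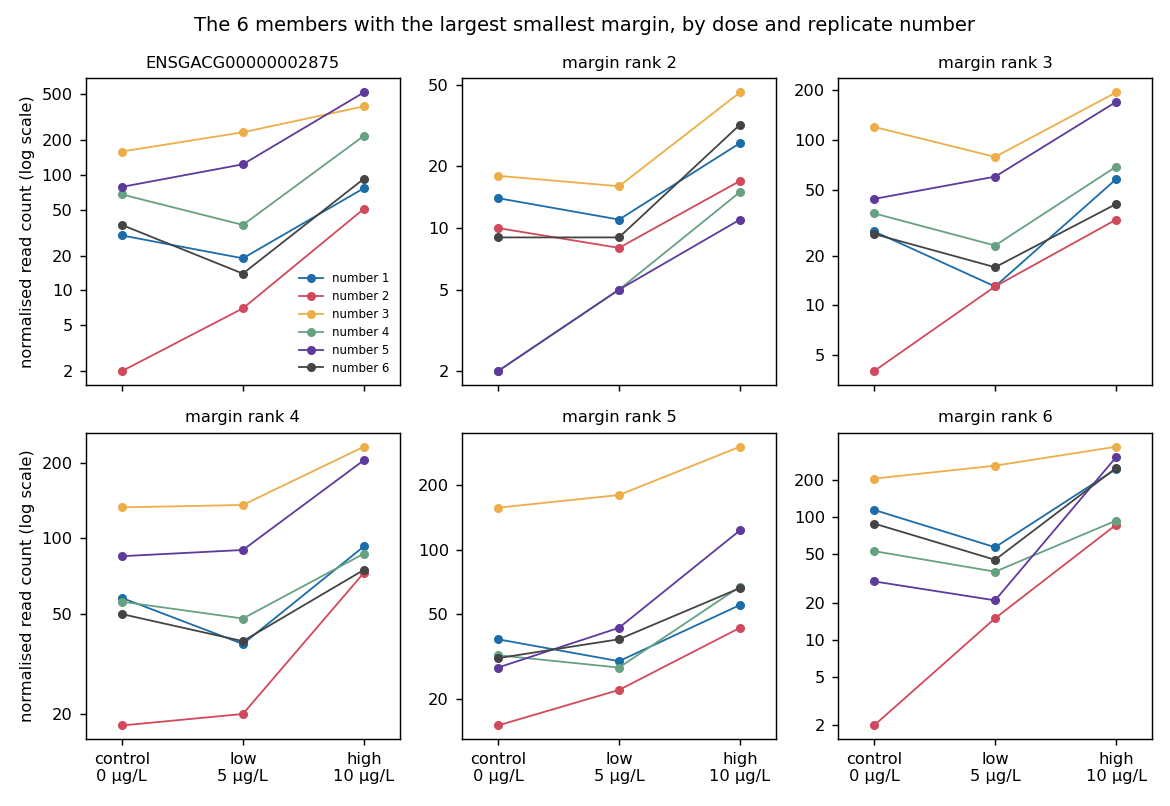
Normalised read counts (log scale) of the 6 members with the largest smallest margin, by dose group, with a line for each replicate number. Every line is highest at the high dose, which the rule requires, and number 3 (yellow) starts highest and number 2 (red) lowest among control pools in most panels; ENSGACG00000002875 spans 2 to 160 in control and 51 to 521 in high pools.

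At the other end of the range were the members with the most reads. Values are not corrected for gene length, so this ranks the depth behind each gene and not its expression relative to other genes. ENSGACG00000014467 had 11668 to 20818 (median 17440) in control, 11072 to 20871 (median 16632.5) in low and 12665 to 25421 (median 18328.5) in high pools. The groups overlapped over most of their range. High exceeded control by 0.17 ± 0.11 and low by 0.19 ± 0.12 within numbers (log2, SD, n = 6), and in number 4 the values were 17988, 18496 and 18552 in control, low and high.

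The gene with the next highest mean had 8966 to 19266 in control, 7500 to 17182 in low and 9836 to 22373 in high pools. Its differences were even across numbers: high exceeded control by 0.22 ± 0.07 and low by 0.35 ± 0.07 (log2, SD, n = 6), and its smallest margin was 0.13. The gene ranked 4 by read count was uneven instead, with 23760 in high pool 5 against 8687 in control pool 5 and 10196 in low pool 5, and 4956 in high pool 2 against 4012 in control pool 2 and 4284 in low pool 2. Its high minus control difference was 0.47 ± 0.51. The gene ranked 5 had differences of 0.33 ± 0.15 from control and 0.59 ± 0.22 from low.

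**Figure D3:**
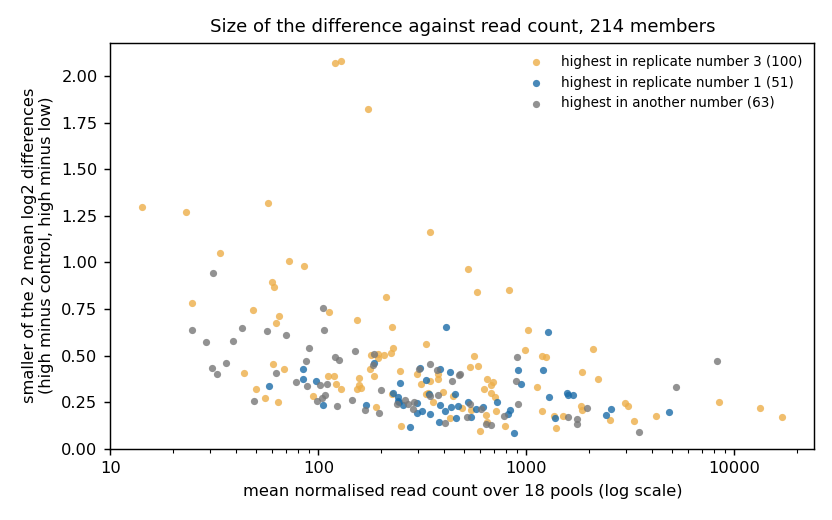
Smaller of the mean log2 differences (high minus control, high minus low) of each of the 214 members, against its mean normalised read count over the 18 pools (log scale), coloured by the replicate number with the highest level. Differences over 1 belong to genes with a mean under 1000, and the 12 members with the most reads stay under 0.5.

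The size of the difference fell as the read count rose among the members. In the 72 members with the fewest reads, with means of 14.2 to 185, the median difference was 0.47 against control and 0.56 against low. In the 71 with the most reads, with means of 541 or more, it was 0.25 and 0.29. Members had more reads than the tested genes as a whole, with a median mean value of 328 against 177. They made up 2.05% of the 3704 genes with a mean of 500 or more, 1.36% of the 9054 genes between 50 and 500 and 0.448% of the 3345 genes under 50. The rule chose the members on these same differences. At low counts a few reads move the ratio, so a gene with a small difference more easily misses in a number. Whether the fall in size and the rise in share go beyond what this choice sets was not tested, and nothing is read from them. No member had a value of 0 in any pool, and 7 had a value of 5 or less in at least 1 pool.

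Summed over all members, the values made up 1.06% to 1.92% of a library in control pools (1.45 ± 0.334%, SD, n = 6), 1.12% to 1.81% in low (1.46 ± 0.312%) and 1.31% to 2.197% in high pools (1.74 ± 0.331%). The groups overlapped, because the share differed more between numbers than between doses. Number 1 stood at 1.92%, 1.81% and 2.197% in control, low and high, and number 4 at 1.14%, 1.26% and 1.31%. These shares also depend on the deposited totals, 8.72, 8.36 and 8.58 M in number 1 and 12.9, 12.2 and 13.4 M in number 4. The sums themselves were 167052, 151326 and 188489 in number 1 and 147180, 153483 and 175734 in number 4. Number 3 had the largest sum in each group, 202008, 202414 and 261118.

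Across replicate numbers, which the rule does not compare with each other, a profile recurred in part of the members. This was noticed in the data and is given as a description. The mean log2 level over the 3 pools of a number was highest in number 3 in 100 of the 214 members (46.7%, against 17.5% of all 16103 genes) and lowest in number 2 in 117 (54.7%, against 14.5%). Number 2 was the highest in only 1 member and number 3 the lowest in 4. Number 1 was the highest in 51 members (23.8%, against 25.5% of all genes) and number 5 in 36 (16.8%, against 19.3%). Both together, number 3 on top and number 2 at the bottom, held in 57 members (26.6%, against 3.25% of all genes). Pool 3 also had the most genes at 5 or less in each dose group. Whether that trait of the libraries bears on the profile was not tested.

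The profile was also seen in the pools without added cortisol. Those values took part in the choice, as each control value had to lie below the high value of its number. They are thus no baseline apart from the rule. Among the 6 control pools, number 3 was the highest in 98 members (45.8%, against 19.1% of all genes) and number 2 the lowest in 113 (52.8%, against 17.5%). Number 3 exceeded number 2 in 199 of the 214 members in control pools, with a median difference of 0.68 on the log2 scale. It did so in 200 in low pools and in 198 in high pools, with medians of 0.68 in each. Of all genes 49.8% to 50.9% did so in each of the 3 groups, with medians of 0 to 0.02.

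The genes of the opposite pattern gave the mirror image. By the same rule turned round, 126 genes had their lowest value at the high dose in 6 of 6 numbers. Among their control pools number 2 was the highest in 51 (40.5%) and number 3 the lowest in 49 (38.9%), and number 3 exceeded number 2 in 12 of 126. No test was made of the difference between these sets, since both were chosen on these libraries, with the control values taking part in both choices. With columns rescaled to the same total, number 3 was highest in 51 members (23.8%, against 9.75% of all genes) and number 1 in 115 (53.7%, against 42.0%), while number 2 was still the most frequent lowest, in 80 members (against 9.92% of all genes).

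**Figure D4:**
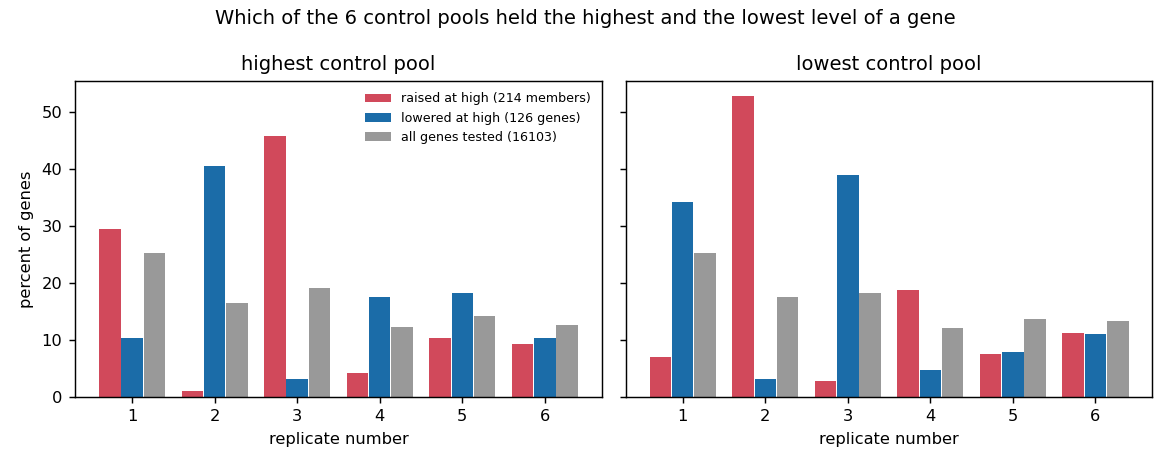
Percent of genes whose highest (left) or lowest (right) control pool was the one with each replicate number, for the 214 members, the 126 genes of the mirrored rule and all 16103 genes tested. Control pool 3 was the highest in 45.8% of members and control pool 2 the lowest in 52.8%, and the genes lowered at high cortisol show the reverse.

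This profile went with the size of the margins. Of the 24 members whose smallest margin exceeded 0.25, 21 were highest in number 3 and 17 lowest in number 2. All of the 12 with the largest margins were highest in number 3. The 51 members highest in number 1 had median differences of 0.29 from control and 0.30 from low, the 100 highest in number 3 had 0.40 and 0.42, and the 36 highest in number 5 had 0.41 and 0.51. The 1 member highest in number 2, singled out after its values were seen, had 33 in control, 49 in low and 50 in high in that number and a mean of 32.4 over all pools.

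Pairs of members also varied together over the 6 numbers. The correlation of their number means had a median r of 0.46 over all pairs of members and was above 0 in 76.3% of pairs, while over all pairs of the 16103 genes the median was 0.00 and 50.01% were above 0. The 126 genes of the mirrored rule were close to the members, with a median r of 0.36 and 72.5% of pairs above 0. Such shared variation is therefore not particular to the members. Each correlation rests on 6 numbers that share libraries. The range between the highest and lowest number mean had a median of 1.06 on the log2 scale in members and 1.05 in all genes.

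The spread between numbers was larger than the difference between doses, and it kept the groups overlapping. Each of the 36 pairs of a high and a control pool was taken, whatever their numbers. The high pool was above in a median of 75% of pairs over members and 50% over all genes. The rule sets a floor under the members' share, as high must be above in all 6 pairs of the same number. The lowest share of any member was 61.1%, so the 75% is a description. In numbers 1 to 6 the high pool was above all 6 control pools in 102, 15, 154, 38, 123 and 67 members. These were 47.7%, 7.01%, 72.0%, 17.8%, 57.5% and 31.3% of members, against 8.22% to 18.4% of all genes. By the rule, the high pool that shares a number with the highest control pool exceeds all 6 control pools in every member. The shares of members are thus raised by the choice, and nothing is read from their excess over all genes. In number 2 the share of members, 7.01%, was below the 8.22% of all genes. The lowest high pool exceeded the highest control pool in 1 member, which was the only such gene among all 16103 (0.00621%). It exceeded the highest low pool in 0 members, against 2 of all genes (0.0124%). The 1 member, singled out for this after its values were seen, had 259 to 283 in control, 214 to 326 in low and 287 to 386 in high pools.

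With pools compared as groups, no member passed a test. This comparison leaves out the replicate number, so it counts the spread between numbers as error. Centred on their group means, pools of one number correlated over genes (mean r = 0.78). In limma on log2(value + 1) over all 18 pools, without the replicate number, 0 of 214 members were called at a Benjamini-Hochberg adjusted p under 0.05 in high against control, where 0% of all genes were called, and 0 in high against low, where 0% were called. At an unadjusted p under 0.05 there were 30 members higher in high than in control, where 72 of all 16103 genes (0.447%) were, and 46 higher than in low, where 179 (1.11%) were. In low against control limma called 0 members and 0% of all genes. At an unadjusted p under 0.05 it had 0 members, beside 25 of all genes higher (0.155%) and 53 lower (0.329%). The adjusted p from limma was 1 for ENSGACG00000002875 against control (standard error 0.92) and for ENSGACG00000014467 (standard error 0.24).

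With the replicate number as a block, limma called 64 members higher in high than in control (29.9% of members), where 0.727% of all genes were called higher, and 144 higher than in low (67.3%), where 4.35% were. Nothing is read from these shares, since the rule picked the members on the same differences. Of the members 61 were called in both comparisons, 83 against low alone, 3 against control alone and 67 in neither. The same split was not counted over all genes, so nothing is read from it. Of all 16103 genes, 700 were called higher than low and 117 higher than control. The block lowered the median standard error of the members to 0.10, from 0.24 without it. ENSGACG00000002875 had an adjusted p of 0.00483 against control and 0.000840 against low in the blocked limma fit, and ENSGACG00000014467 had 0.289 and 0.145. Both genes are members, and the first was picked for its margin on these same differences. Their p-values are thus descriptions and support nothing. In low against control the blocked limma fit called 0 members and 0% of all genes. At an unadjusted p under 0.05 it had 9 members lower, where 1032 of all 16103 genes (6.41%) were lower.

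The blocked calls varied with the libraries and with covariates. Against control 12 members were called, of 16 genes called higher in all, without high pool 5, 15 of 18 without control pool 3, 24 of 33 without control pool 2 and 24 of 42 without control pool 5. They were 28 of 38 without high pool 6, 29 of 47 without high pool 3 and 30 of 42 without control pool 4. Against low they were 88 of 361 without low pool 1, 89 of 343 without low pool 6, 89 of 373 without high pool 5 and 95 of 374 without high pool 3. With the number of genes at 5 or less as a covariate 17 members were called of 28 genes against control, and 39 of 79 against low. With the estimated reads as a covariate they were 1 of 1 and 78 of 278. The estimated reads were higher in low than in control in every number, so this covariate is partly aligned with dose. The estimates of high pool 2 and low pool 4 rest on no clear factor. The part of depth or of such low values in the calls was not tested further.

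The order was also read in each number with genes chosen on the other 5. The rule was applied to 5 numbers, leaving out orders of low and control that held in 4 or 5, and the number left out was then read. Over the 6 numbers 1024 of 1481 choices (69.1%) had the high pool above both others in the number left out, where 33.3% of all genes did. The share was 73.7%, 56.2%, 78.7%, 50.5%, 86.8% and 79.5% with numbers 1 to 6 left out in turn, against 30.7%, 30.4%, 34.0%, 36.5%, 37.0% and 30.9% of all genes. In every turn the genes that held were all members: 188, 155, 177, 150, 164 and 190 with numbers 1 to 6 left out. The reading thus counts the same members again in several turns and is not independent of the full rule. Genes chosen in different turns overlap, and the rule was proposed with results of these libraries known, so no p is given.

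**Figure D5:**
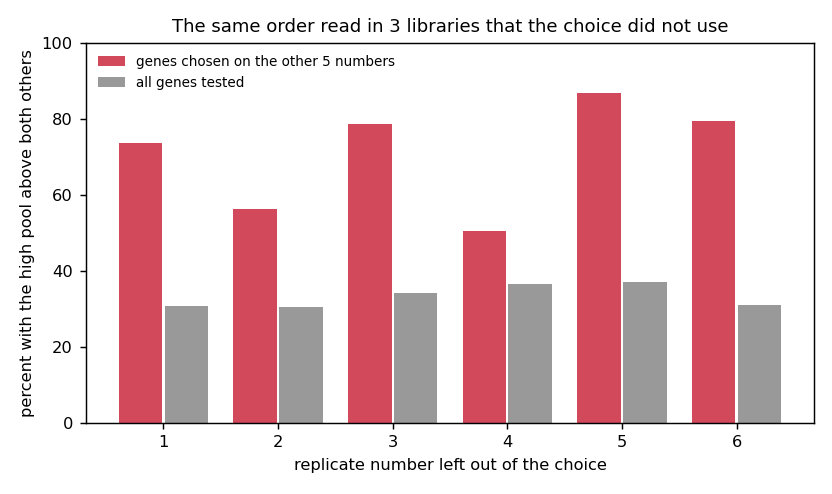
Percent of genes with the high pool above both the low and the control pool in the replicate number left out, for genes chosen on the other 5 numbers and for all 16103 genes. The share runs from 50.5% (number 4) to 86.8% (number 5) among chosen genes and from 30.4% to 37.0% among all genes.

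In every number the left-out median differences were below those of the members in that number. The choice largely sets this, since members lie above both others in every number, while the chosen genes include misses in the number left out. The gap between these medians was small in some numbers and wide in others, and nothing is read from it. In number 2 the 276 genes chosen without it had 0.18 against control and 0.18 against low, where the members had 0.38 and 0.34. In number 5 the 189 genes chosen without it had a median high minus control of 0.46 and high minus low of 0.54. In number 4 the 297 chosen without it had 0.16 against control and 0.05 against low, where the medians of all genes were 0.01 and 0, and 230 were above control but only 167 above low. In number 1 the 255 chosen without it had 0.12 against control and 0.30 against low, with 199 above control and 235 above low. By the share of genes above it, the hold was weakest in number 4 for the low pool, at 167 of 297 genes (56.2%). For control it was weakest in number 2, at 191 of 276 genes (69.2%). By the median, high minus low was smallest in number 4, at 0.05, but high minus control in number 1, at 0.12.

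The genes outside the members that were most like them had fixed orders of low and control or missed in 1 number. By Pearson correlation over the 18 pools with the mean log2 profile of the members, the closest gene (r = 0.96) had 566 to 1349 in control, 539 to 1130 in low and 712 to 1770 in high pools. It held the high value on top in 6 of 6 numbers and was left out for low below control in 5. The next (r = 0.95) had high on top in 5 numbers, and the one after it (r = 0.95) was left out like the first. Members themselves correlated with their own mean profile at a median r of 0.70, a value that includes each member in the mean.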

How the data were processed

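RNA of 18 egg pools, 6 per dose group, was analysed from 1 table of scores that the authors deposited, that is, counts per gene which they had normalised between libraries and rounded to whole numbers. Per the submitters' processing notes the tools were edgeR, HTSeq, Cuffdiff, Cufflinks 2.2.0, TopHat, TopHat2 2.0.8, Bowtie2 2.1.0 and FastQC, with no roles given. Neither the genome build nor the method of scaling is given in the sources used here. Because these scores are not raw counts, no count model was fitted.

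Members were found by the stated rule, and differences were taken on log2(value + 1) within replicate numbers. The minimum mean of 11.4 is the mean column total of 11.4 M divided by 1000000. limma 3.58.1 (R 4.3.3, variance trend) was fitted to all 18 samples over the 16103 genes, without a replicate block and, as the alternative, with it, with Benjamini-Hochberg adjustment over all genes at 0.05. It was tested on simulated data, as were the rule and the scan that estimated the reads per library from gaps in the rounded values (Python 3.11.15), which gave a clear factor in 16 of 18 columns. Intervals for counting error were not computed, as the reads themselves were not recovered.

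Centred on their group means, libraries that share a number had correlations over genes of 0.67 or more (mean r = 0.78), above the criterion of 0.1, and each correlated best with its own number in 36 of 36 comparisons. By that criterion a number marks a pairing of pools, one read from the data, as the labels do not state it. At most 2.99% of genes were equal between any columns. Identifiers printed are the members with the largest smallest margin and with the highest mean, and other members are given by rank. The members and lists were chosen with earlier results of these data known. The alternatives tried were other filters, scalings, pseudocounts, covariates and the removal of single libraries.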

Additional observations from a re-analysis of the deposited data

Results flagged for a closer look

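The check was Dixon's ratio of the gap at the end of a group to its range. Among 42 groups of 6 pools, 5 held a value far from the other 5. For normally distributed values chance gives about 1 in 20 groups, or 2.1. The values checked were not put on a log scale, so that rate may not hold for them. All 5 were in pools of replicate number 3. They fell among the 6 members with the largest margins, all of which were highest in number 3. The flags thus add little to the profile across numbers. The gene at margin rank 3 stood at 120 in control pool 3, where the other control pools held 4 to 44. The gene at margin rank 5 stood at 303 in high pool 3 (43 to 123 in the other high pools), at 180 in low pool 3 (22 to 43) and at 157 in control pool 3 (15 to 38). The gene at margin rank 6 stood at 264 in low pool 3, against 15 to 57 in the other low pools. These groups are not independent, as 3 of them belong to 1 gene.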

How the results depend on the processing

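The count of 214 members was 216 with no filter on the mean, 165 with a filter 10 times as strict, 144 with columns rescaled to the same total (94 of them members), 217 with quantile normalization (153 of them members), 304 with fixed orders kept, and 51 when high had to exceed both others by 10%. It was 189 to 297 without replicate numbers left out singly. The median differences of the members kept their size within the spread between numbers under every alternative tried. For the differences of high this is no independent check, since the rule had set their sign in every number. The low minus control median, -0.04 as deposited, was 0.03 with columns rescaled to the same total. The median low minus control of all genes was 0.002 as deposited and 0.07 with that rescaling. The left-out share of 69.1% was 68.8% to 73.4% under 4 alternatives, beside 27.5% to 34.3% of all genes.

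Members called went from 0 without the replicate block to 64 against control and 144 against low with it. These were 64 of 117 and 144 of 700 genes called higher in all. With the block they were 66 of 131 and 145 of 719 at a pseudocount of 5, and 63 of 112 and 143 of 699 with no filter. They were 65 of 119 and 139 of 674 with quantile normalization, and 24 of 38 and 71 of 302 with columns rescaled to the same total. With the number of low genes as a covariate they were 17 of 28 and 39 of 79. With the estimated depth, added after seeing the data, they were 1 of 1 and 78 of 278. Calls over all genes fell too under rescaling and with the covariates. The cause of these drops was not tested. Over single libraries left out, calls ran from 0 to 79 against control, 0 to 156 against low and 0 to 1 for low against control. The 1, a member called lower, came with the block without control pool 5, where 59 of all genes were called higher and 204 lower. Without low pool 5 the blocked fit of low against control called 0 members, beside 18 genes higher and 151 lower. Without control pool 4 it called 0 members, beside 5 genes lower. For high against control and against low, the zeros are those without the block, where 0 were called whichever library was left out. With it the ranges were 12 of 16 to 79 of 170 genes called higher, and 88 of 361 to 156 of 852. Without the block, other pseudocounts, filters and quantile normalization called 0.

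The 100 members highest in number 3 became 51 with columns rescaled to the same total, and were 83 to 99 under 4 other settings. The 117 lowest in number 2 were 80 to 113. These settings were chosen after seeing the data. The deposited values hold rounded reads of low genes, so differences of members under about 50 rest on few reads.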
